A study of Mus musculus with 39 samples.

Results

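SR proteins and heterogeneous nuclear ribonucleoproteins (hnRNPs) are RNA-binding proteins that coat newly made transcripts, and 31 of their genes were followed here among the 25239 genes quantified in N2a cells, a mouse neuroblastoma line. Genes were taken by symbol, from those quantified in both deposited expression tables: every Srsf symbol with a number (11 SR proteins) and every Hnrnp symbol (20 hnRNPs), with pseudogenes left out. One pseudogene, Hnrnpa1l2-ps2, was dropped this way. No expression value entered the choice.

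All cells were transfected with plasmids for RfxCas13d, an RNA-cutting CRISPR nuclease, and a crRNA, the guide RNA that directs it, and RNA was collected 48 h later. The study asked whether RfxCas13d changes transcripts other than its target. Wild-type (WT) N2a cells received Sik3 cr1, Sik3 cr8, Map2 cr1, Map2 cr3, Mapt cr4, Mapt cr6 or Rbfox3 cr3, with 3 non-targeting (NT) libraries beside them (NT of the WT set), or Rbfox3 cr5, with 3 NT libraries of their own (NT of the N set, after a letter in the library names). N2a cells stably expressing tdTomato received tdTomato cr4, tdTomato cr7 or NT crRNA. Each of the 13 groups held 3 libraries, 39 in all, and every group carried RfxCas13d, the NT groups included. The labels do not say that the libraries of a group came from separate cultures, so p-values measure the spread between these libraries, which may be technical. For the RT-qPCR tests of its crRNAs the study sorted GFP-positive cells, but neither the labels nor the RNA-seq methods say whether the cells of these libraries were sorted, and the share of cells that took up the plasmids is not stated.

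SR proteins carry RNA recognition motifs and a tail rich in arginine and serine, bind exonic enhancer sequences and recruit the spliceosome, and several of them also act in mRNA export and translation. hnRNPs bind introns and untranslated regions, often oppose SR proteins at a splice site, and package, stabilise or localise mRNA. Many genes of both families regulate their own mRNA through exons that, when included, send the transcript to nonsense-mediated decay.

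Estimated from the value of a single read, libraries held 10405722 to 16874763 counted reads in WT cells and 2199738 to 4300019 in the tdTomato line. The targeted mRNA stood at 27.3% and 15.5% of its NT mean with Sik3 cr1 and cr8, 25.4% and 11.9% with Map2 cr1 and cr3, 50.7% and 23.5% with Mapt cr4 and cr6, and 16.4% and 14.6% with tdTomato cr4 and cr7. Rbfox3 was near 0 in every library, 0.14 FPKM at most, so its knockdown could not be read. FPKM are fragment counts scaled to gene length and library size. Of 12 neuroblastoma markers, 9 reached 1 FPKM in WT cells, with Hand2 at a median of 198 FPKM. The 10 markers of other cell types summed to 7.63 to 10.9 FPKM in WT libraries. The libraries are bulk RNA, so fewer cells of a kind and less RNA per cell cannot be told apart.

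The spacers are the 22-base stretches of a crRNA that pair with the target. They are shown because Hnrnpa0, the member that moved most, moved with some of them and not with others. The groups also differ in target and in its remaining level, and Rbfox3 cr5 belongs to the N set, whose NT libraries differed too. The spacers are given 5′ to 3′ in DNA letters as the study lists them, with the numbers that the library labels carry. Capitals mark the longest stretch that is complementary to an annotated Hnrnpa0 transcript.
Sik3 cr1: caagcactgccaggtGCCACAT
Sik3 cr8: gtcgctctgtgaatCAGGCATc
Map2 cr1: actctcaattttcacaCGTCCA
Map2 cr3: gagcatTGTCAAGtgagccaac
Mapt cr4: cttagaTAAAAGAaaaggcaga
Mapt cr6: aTAAAAGAaaaggcagaggtcc
Rbfox3 cr3: gcctccatAAATCTCAgcacca
Rbfox3 cr5: aaatccatcctgATACACGacc
NT: tcaccagAAGCGTaccatactc

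Against 282 annotated transcripts of the 31 members (GENCODE vM21, build GRCm38), none of the 9 spacers shown came closer than 5 mismatches to any of them: Mapt cr4 reached 5 with Hnrnph1, and Mapt cr6 reached 5 with Hnrnpr and Srsf3. The longest stretch paired with any member ran from 9 bases (Map2 cr3) to 14 (Mapt cr4), with 10 for NT. Hnrnpa0 was 7 to 10 mismatches away from each of these 9, NT included, and its longest paired stretch was 6 to 8 bases. The tdTomato spacers, which pair with a transgene and are not shown, came no closer to a member than 6 mismatches (tdTomato cr4, with Hnrnpr) and 7 mismatches (tdTomato cr7). They were 9 and 8 mismatches away from Hnrnpa0, in the same order, with longest paired stretches of 7 and 9 bases. Each of the 8 targeting spacers shown matched its own gene without a mismatch. The Mapt cr6 and Mapt cr4 sites, chr11:104329649-104329670 and chr11:104329654-104329675 on the plus strand, lie in an untranslated region of Mapt. Each matched 1 of 12 annotated Mapt transcripts, and their spacers share 17 bases at an offset of 5. The Map2 cr3 and Map2 cr1 sites, chr1:66438316-66438337 and chr1:66438258-66438279 on the plus strand, lie in coding sequence of Map2. Map2 cr3 matched 9 and Map2 cr1 12 of 24 annotated Map2 transcripts. The Sik3 cr8 and Sik3 cr1 sites, chr9:46202652-46202673 and chr9:46202074-46202095 on the plus strand, lie in a Sik3 untranslated region found in 1 of 7 annotated transcripts. The Rbfox3 cr5 site, chr11:118496369-118496390 on the minus strand, lies in Rbfox3 coding sequence, and the Rbfox3 cr3 site spans an exon junction there. Each matched 6 of 10 annotated Rbfox3 transcripts.

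In NT cells of the WT set the members covered a wide range of levels. Hnrnpa2b1, a splicing and RNA-transport factor, was the most abundant at 509 ± 11.6 FPKM (SD, n = 3), followed by Hnrnpab at 409 ± 8.38 and Hnrnph1 at 345 ± 10.6 FPKM, and these 3 did not overlap with each other or with the next. Hnrnpk, Srsf2 and Hnrnpl came next at 195 ± 10.8, 183 ± 2.59 and 181 ± 1.48 FPKM, each within the spread of its neighbour. Srsf2 was the most abundant SR protein mRNA, ahead of Srsf5 at 110.0 ± 1.19 FPKM. At the low end stood Hnrnpa3 at 15.4 ± 1.01, Srsf4 at 11.5 ± 0.69 and Srsf12 at 0.15 ± 0.01 FPKM. Srsf12 was too low to test, so 30 members were tested in each comparison. The level at which each gene is expressed is compared here on FPKM, which divides by gene length.

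**Figure D1:**
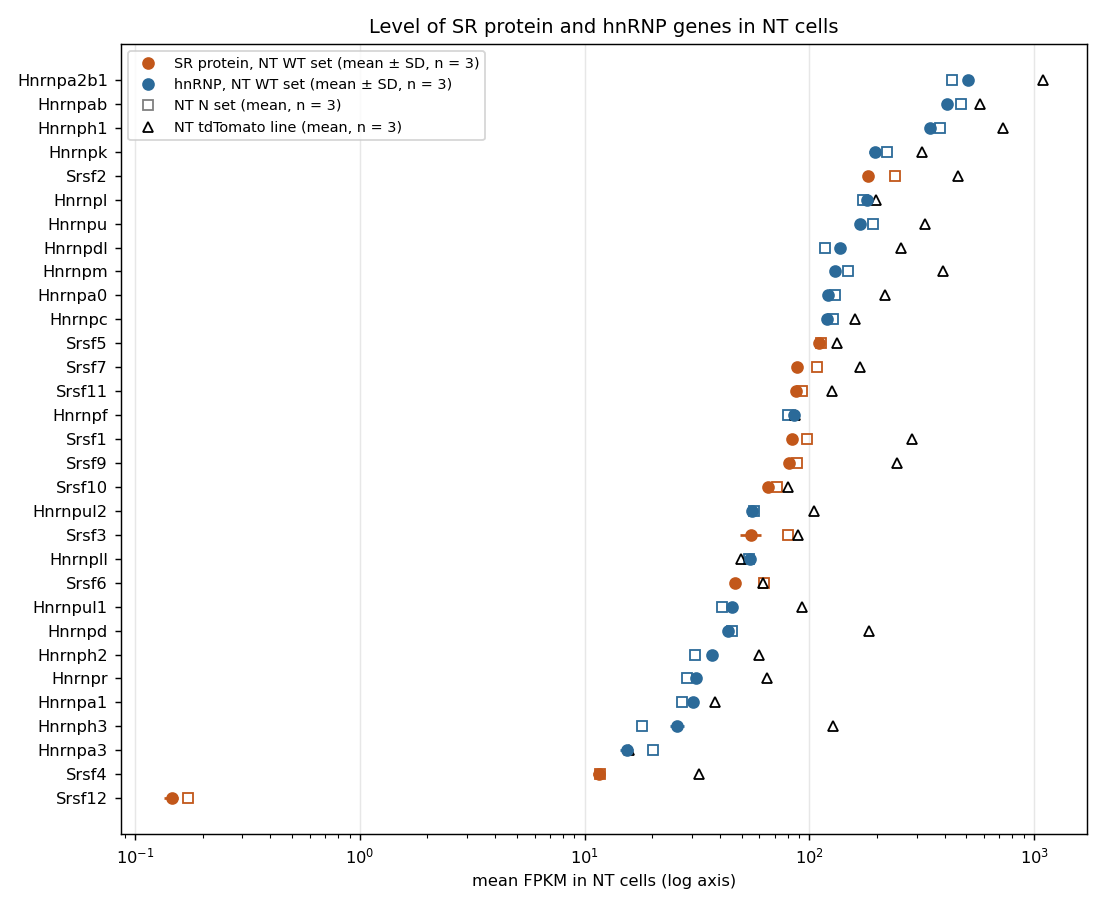
Mean FPKM of each member in NT cells on a log axis, one row per gene from the most abundant down; filled circles are NT libraries of the WT set (orange SR proteins, blue hnRNPs, bars SD, n = 3), open squares NT libraries of the N set, and open triangles NT libraries of the tdTomato line. Levels ran from 509 FPKM for Hnrnpa2b1 to 0.15 FPKM for Srsf12, and 29 of 30 triangles lie to the right of their circles.

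NT cells of the tdTomato line had higher values than NT cells of the WT set for 29 of 30 members, with a median ratio of 1.83. The ratio ran from 0.90 for Hnrnpll to 4.93 for Hnrnph3, with 4.20 for Hnrnpd and 3.02 for Srsf9. The dropped pseudogene Hnrnpa1l2-ps2 differed much more, with 130.3 to 266 FPKM in the tdTomato-line table and 1.71 to 5.61 FPKM in the WT table. The 2 tables were normalized separately, so the line and the table cannot be told apart, and no test was made across them.

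Of the 10 SR proteins tested, 4 to 8 were called lower with each crRNA of the WT set and 0 or 1 higher, while hnRNP mRNAs moved both ways. A member was called at a Benjamini-Hochberg adjusted p under 0.05 over all genes tested, by limma on log2(FPKM + 0.5), and each fold change below is on that scale. The 7 comparisons of the WT set share their 3 NT libraries. None of the called members changed by 2-fold or more in any comparison. Counts of SR proteins and hnRNPs called higher or lower are counts of their mRNAs, and protein levels were not measured here.

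With Sik3 cr1, 7 of 10 SR proteins were lower and 0 were higher, and 7 of 20 hnRNPs were lower and 1 was higher, beside 21.1% of all genes lower and 23.6% higher. With Sik3 cr8, 7 SR proteins were lower and 0 higher, and 5 hnRNPs were lower and 7 higher, beside 21.2% of all genes lower and 21.7% higher. With Map2 cr1, 8 SR proteins were lower and 1 higher, and 6 hnRNPs were lower and 4 higher, beside 23.9% and 25.8% of all genes lower and higher. In these 3 groups 70% to 80% of the SR proteins were called lower. With Map2 cr3, 4 SR proteins were lower and 1 higher, and 2 hnRNPs were lower and 5 higher, beside 13.4% lower and 19.8% higher over all genes. Its split of 6 members higher and 6 lower became 3 higher and 10 lower with FPKM rescaled by the median ratio of each library, where all genes split into 15.4% higher and 17.6% lower. Against all 6 NT libraries of WT cells it became 6 higher and 13 lower, beside 22.3% and 17.8% of all genes. With Mapt cr4, 6 SR proteins were lower and 0 higher, and 4 hnRNPs were lower and 5 higher, beside 16.7% lower and 21.8% higher. With Mapt cr6, 6 SR proteins were lower and 0 higher, and 5 hnRNPs were lower and 4 higher, beside 14.6% lower and 22.2% higher. Its 15 members called were 8 without NT replicate 1 of the WT set, and the rescaled values gave 2 higher and 13 lower, beside 16.9% of all genes higher and 19.2% lower. For fits with a library left out, here and below, the share of all genes called was not computed. Those counts have no background beside them. With Rbfox3 cr3, 4 SR proteins were lower and 1 higher, and 4 hnRNPs were lower and 5 higher, beside 13.4% lower and 19.1% higher. Rescaled, Rbfox3 cr3 gave 5 members higher and 9 lower, beside 15.4% and 16.8% of all genes.

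Over the mean of the 7 crRNAs, 7 SR proteins were lower and 0 higher, with a median log2 fold change of -0.21 over the 10 tested against 0.03 over all genes. The hnRNPs split into 6 lower and 7 higher, with a median of 0.03, and all genes into 21.7% lower and 28.2% higher. Without NT replicate 1 of the WT set the members called by this mean fell to 13, 11 lower and 2 higher, against 20 with all libraries. The share of all genes called without that library was not computed. On rescaled FPKM the mean called 5 members higher and 16 lower, beside 25.4% of all genes higher and 24% lower. Summed over the family, SR protein FPKM came to 681 ± 4.21 with Map2 cr1, 688.5 ± 48.7 with Sik3 cr1, 689.9 ± 4.27 with Sik3 cr8, 728 ± 2.61 with Mapt cr4, 748 ± 11.2 with Mapt cr6, 771 ± 2.58 with Rbfox3 cr3 and 775 ± 10.4 with Map2 cr3, against 812 ± 16.1 in NT cells of the WT set (SD, n = 3 each). The highest of these targeting libraries had a summed 786 FPKM and the lowest NT library 794 FPKM, so the groups did not overlap. These sums weight the abundant genes most, Srsf2 above all. Each WT-set group had 2 libraries in one library series and 1 in another. Within the first series alone limma called 14 members lower and 9 higher over the mean of the 7 crRNAs, beside 19.1% of all genes lower and 25.2% higher. Within the second it called 5 lower and 1 higher, beside 6.39% and 5.67% of all genes. There each WT-set group, NT included, is 1 library, and the spread was estimated from the groups of the N set, which the lone libraries are assumed to share.

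**Figure D2:**
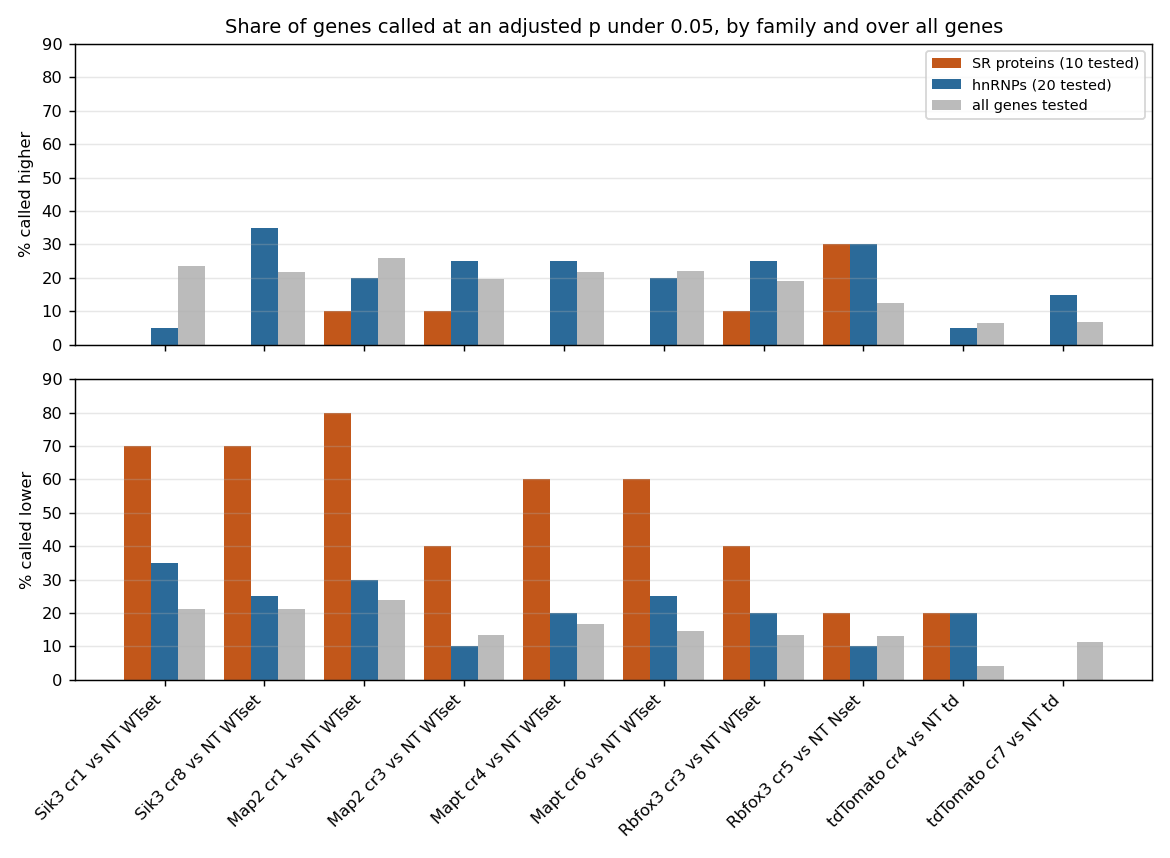
Percent of SR proteins (orange, 10 tested), hnRNPs (blue, 20 tested) and all genes tested (grey) called higher (upper panel) and lower (lower panel) at an adjusted p under 0.05 with each crRNA against its own NT libraries. In the 7 groups of the WT set the orange bars for lower genes stand at 40% to 80%, above the grey bars, which stand at 13.4% to 23.9%.

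Outside the WT set fewer SR proteins were called lower. With Rbfox3 cr5, 2 SR proteins were lower and 3 higher, and 2 hnRNPs were lower and 6 higher, beside 13.1% lower and 12.6% higher over all genes. The median log2 fold change was 0.04 over the SR proteins and 0.05 over the hnRNPs, against 0.00 over all genes. With tdTomato cr4, 2 SR proteins and 4 hnRNPs were lower and 1 hnRNP was higher, beside 4.28% lower and 6.46% higher over all genes. Rescaled by the median ratio, 3 members were higher with tdTomato cr4 and 5 lower, beside 7.99% of all genes higher and 3.1% lower. With tdTomato cr7, 0 members were lower by limma and 3 hnRNPs were higher, beside 11.3% lower and 6.72% higher over all genes. At an unadjusted limma p under 0.05, 9 members were higher and 4 lower, and the share of all genes at that threshold was not computed. Whether the SR proteins as a family responded differently in these sets was not tested.

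**Figure D3:**
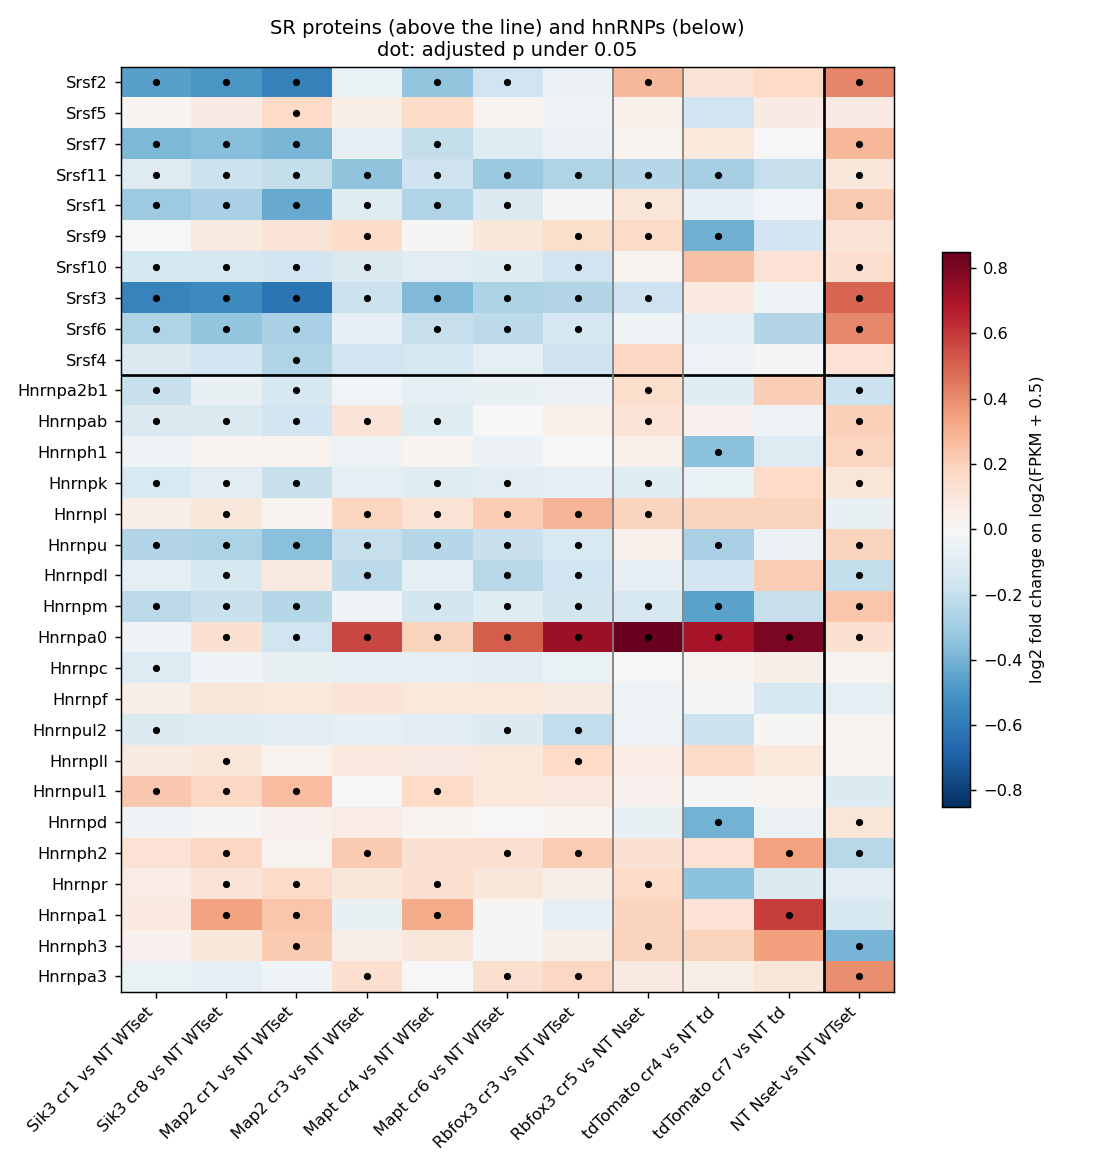
Log2 fold change of the 30 tested members (rows, SR proteins above the black line and hnRNPs below it, each ordered by NT level) in the 10 comparisons of a crRNA with its own NT libraries and, in the last column, of the NT libraries of the N set with those of the WT set; red is higher and blue lower in the group named first, and a dot marks an adjusted p under 0.05. The row of Hnrnpa0 is the reddest, up to 0.84, and the row of Srsf3 the bluest, down to -0.62.

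Srsf3, Srsf11 and Hnrnpu were called lower with all 7 crRNAs of the WT set, and 0 members were called higher with all 7. Over all genes, 6.66% were called lower with all 7 and 6.7% higher with all 7. Srsf3, the smallest SR protein and a factor in export and polyadenylation as well as splicing, is at chr17:29032628-29043373 on the plus strand. Its level was 37.9, 37.0 and 35.1 FPKM with Sik3 cr1, 36.8, 37.6 and 37.8 with Sik3 cr8, and 35.6, 33.9 and 36.7 with Map2 cr1. It was 41.8, 40.7 and 44.0 FPKM with Mapt cr4, 43.2, 46.9 and 46.8 with Mapt cr6, 44.6, 45.1 and 48.5 with Rbfox3 cr3, and 44.6, 46.5 and 53.4 with Map2 cr3. NT cells of the WT set had 54.3, 49.3 and 61.0 FPKM. All targeting libraries but 1, of Map2 cr3, lay under the lowest NT library. The log2 fold changes were -0.62 with Map2 cr1, -0.57 with Sik3 cr1, -0.54 with Sik3 cr8 and -0.37 with Mapt cr4, with limma adjusted p of 1.04e-08, 6.99e-08, 1.4e-07 and 3.07e-05 in that order (SE 0.06). They were -0.26 with Mapt cr6, -0.25 with Rbfox3 cr3 and -0.19 with Map2 cr3, with limma adjusted p of 0.0015, 0.00268 and 0.0191.

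Srsf2, an SR protein that acts on both constitutive and regulated exons and represses its own mRNA, is at chr11:116849901-116853094 on the minus strand, where its exons overlap Mettl23 and Mfsd11, and reads of the 3 genes may be shared. It had 123, 117 and 128 FPKM with Map2 cr1, 130.5, 128 and 131 with Sik3 cr8, and 147, 132 and 120.1 with Sik3 cr1. It had 147, 150.3 and 138 FPKM with Mapt cr4 and 158, 168 and 162 with Mapt cr6, against 185, 180.0 and 184 FPKM in NT cells of the WT set. None of these targeting libraries reached the lowest NT library. The log2 fold changes were -0.57 with Map2 cr1, -0.49 with Sik3 cr8, -0.46 with Sik3 cr1, -0.34 with Mapt cr4 and -0.17 with Mapt cr6 (SE 0.05), with limma adjusted p of 3.21e-09, 6.36e-08, 1.63e-07, 1.68e-05 and 0.0118 in that order. With Map2 cr3 (176, 178 and 173 FPKM) and Rbfox3 cr3 (179, 179 and 171 FPKM) the log2 fold changes of -0.06 and -0.05 did not pass the test.

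Srsf1, the first SR protein described and a regulator of splicing and translation, had its lowest values with Map2 cr1, at 63.4, 59.4 and 64.2 FPKM, against 86.3, 82.1 and 83.1 FPKM in NT cells of the WT set. It had 69.4, 69.1 and 64.4 FPKM with Sik3 cr1, 67.8, 68.2 and 71.7 with Sik3 cr8, 71.9, 68.8 and 69.6 with Mapt cr4, 76.0, 78.5 and 76.1 with Mapt cr6, and 80.4, 76.0 and 77.6 with Map2 cr3. These 6 groups lay under the NT libraries without overlap and were called lower, by log2 fold changes from -0.43 (limma adjusted p = 2e-09, Map2 cr1) to -0.10 (limma adjusted p = 0.0326, Map2 cr3). With Rbfox3 cr3, Srsf1 had 80.5, 82.3 and 86.1 FPKM, which overlapped NT.

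Srsf11, a larger arginine- and serine-rich protein that binds other splicing factors, ordered the crRNAs differently. Its lowest levels were 67.1, 70.0 and 68.3 FPKM with Map2 cr3 and 69.6, 71.7 and 67.9 with Mapt cr6. It had 74.7, 71.4 and 71.9 FPKM with Rbfox3 cr3, 76.0, 75.5 and 75.4 with Map2 cr1, 75.9, 77.7 and 75.8 with Sik3 cr8, 76.6, 77.3 and 76.5 with Mapt cr4, and 77.9, 81.2 and 82.9 with Sik3 cr1, against 85.1, 88.2 and 87.6 FPKM in NT cells of the WT set. No targeting library overlapped NT, and the log2 fold changes ran from -0.34 with Map2 cr3 (SE 0.03, limma adjusted p = 4.72e-09) to -0.11 with Sik3 cr1 (limma adjusted p = 0.00419). Srsf11 was also lower outside the WT set, at 77.0, 78.6 and 78.8 FPKM with Rbfox3 cr5 against 93.0, 92.0 and 92.7 FPKM in NT cells of the N set (log2 fold change -0.24, limma adjusted p = 1.28e-06). In the tdTomato line it had 97.1, 108 and 105 FPKM with tdTomato cr4 and 105, 108 and 115 with tdTomato cr7, against 134, 123 and 121 FPKM in NT cells. The groups did not overlap, and the call was made for tdTomato cr4 (log2 fold change -0.28, limma adjusted p = 0.0409) but not for tdTomato cr7 (-0.20, limma adjusted p = 0.0934).

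**Figure D4:**
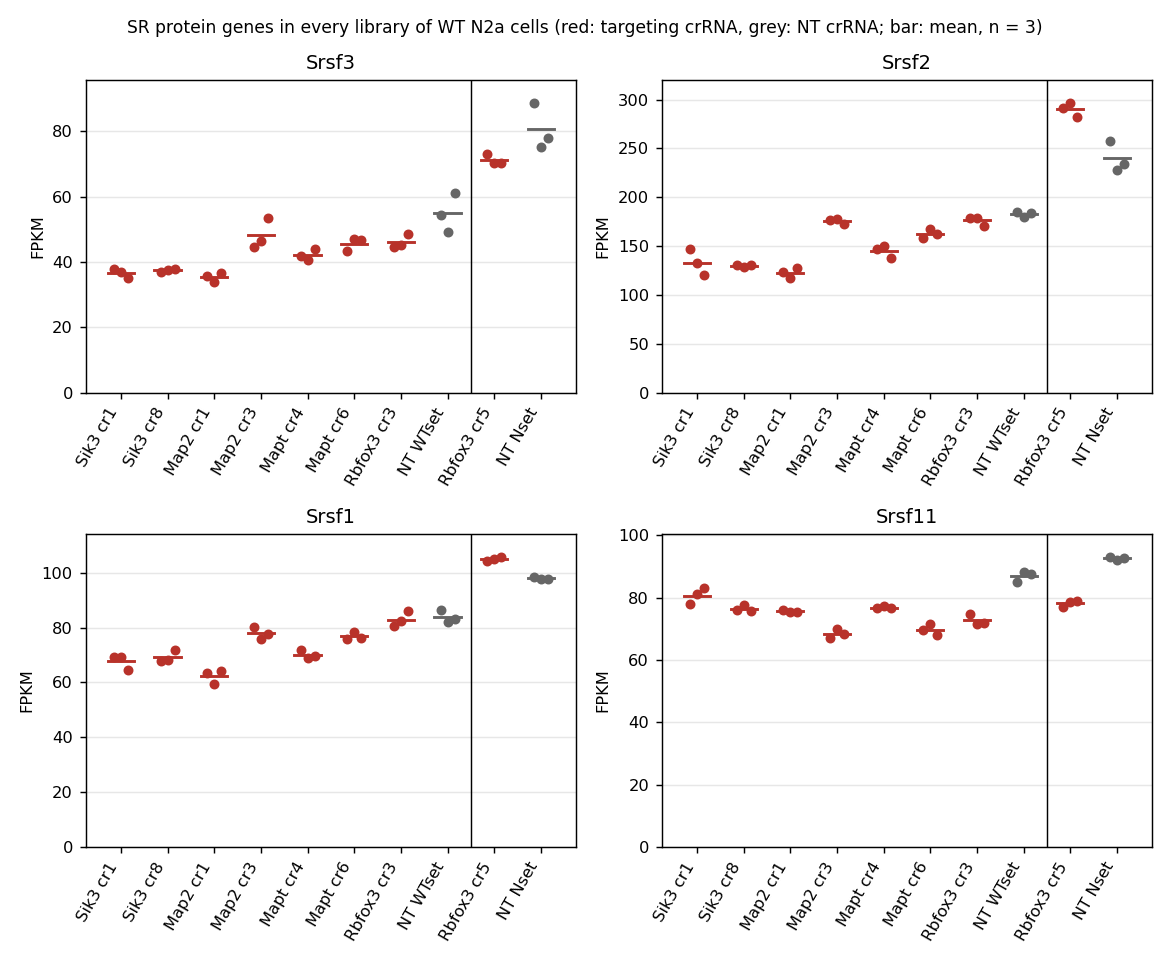
FPKM of Srsf3, Srsf2, Srsf1 and Srsf11 in every library of WT N2a cells (red targeting crRNAs, grey NT; horizontal bars are means of 3 libraries; the vertical line separates the WT set from the N set). Srsf2 with Map2 cr1 lies at 117 to 128 FPKM beside 180.0 to 185 FPKM in its NT libraries, and Srsf11 lies under its NT libraries in every targeting group shown.

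Among the other SR proteins of the WT set, Srsf6 and Srsf10 were called lower with 6 crRNAs each, Srsf7 with 4 and Srsf4 with 1. Srsf7, which also links splicing to export, had log2 fold changes of -0.38 with Sik3 cr1 and -0.36 with Sik3 cr8 (limma adjusted p = 2.72e-06 and 6.53e-06). Srsf6 reached -0.33 with Sik3 cr8, and Srsf10, known as a splicing repressor that is switched on by dephosphorylation, stayed between -0.17 and -0.09. The exceptions in the family were Srsf9, called higher with 2 crRNAs, and Srsf5, called higher with Map2 cr1. Srsf5 ranged from -0.04 to 0.17 over the 7 comparisons and Srsf9 from 0.00 to 0.16.

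Hnrnpa0 had the largest called change among the members, and was called in the WT set, the N set and the tdTomato line. It encodes an hnRNP of the A/B group known for binding AU-rich 3′ ends of stress and cytokine mRNAs, and lies at chr13:58125879-58128556 on the minus strand, a gene without an annotated intron. It had 235, 237 and 229 FPKM with Rbfox3 cr5, against 143, 120.4 and 128 FPKM in NT cells of the N set. In the tdTomato line it had 388, 369 and 368 FPKM with tdTomato cr7 and 369, 336 and 345 with tdTomato cr4, against 249, 208 and 192 FPKM in NT cells. Both sets of targeting libraries lay above all NT libraries. The log2 fold changes were 0.84 with Rbfox3 cr5 (limma adjusted p = 1.34e-12), 0.80 with tdTomato cr7 (limma adjusted p = 0.000244) and 0.70 with tdTomato cr4 (limma adjusted p = 0.000314).

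In the WT set Hnrnpa0 depended on the crRNA. It had 208, 203 and 192 FPKM with Rbfox3 cr3, 182, 174 and 182 with Map2 cr3, and 175, 174 and 171 with Mapt cr6, against 123, 125 and 116 FPKM in NT cells of the WT set. These log2 fold changes were 0.73, 0.57 and 0.52 (SE 0.04), with limma adjusted p of 1.23e-11, 7.33e-10 and 3.57e-09 in that order. Mapt cr4 (137, 141 and 136 FPKM) and Sik3 cr8 (130.1, 136 and 131 FPKM) gave smaller rises of 0.19 and 0.13 (limma adjusted p = 0.00113 and 0.0176), still above all NT libraries. With Sik3 cr1 (123, 116 and 115 FPKM) the groups overlapped and no change was called. With Map2 cr1 (106, 109 and 107 FPKM) Hnrnpa0 fell, by 0.17 on the log2 scale (limma adjusted p = 0.00179). The calls for Rbfox3 cr5, Rbfox3 cr3, Map2 cr3, Mapt cr6 and both tdTomato crRNAs were made under every alternative setting tried, each library left out in turn included.

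**Figure D5:**
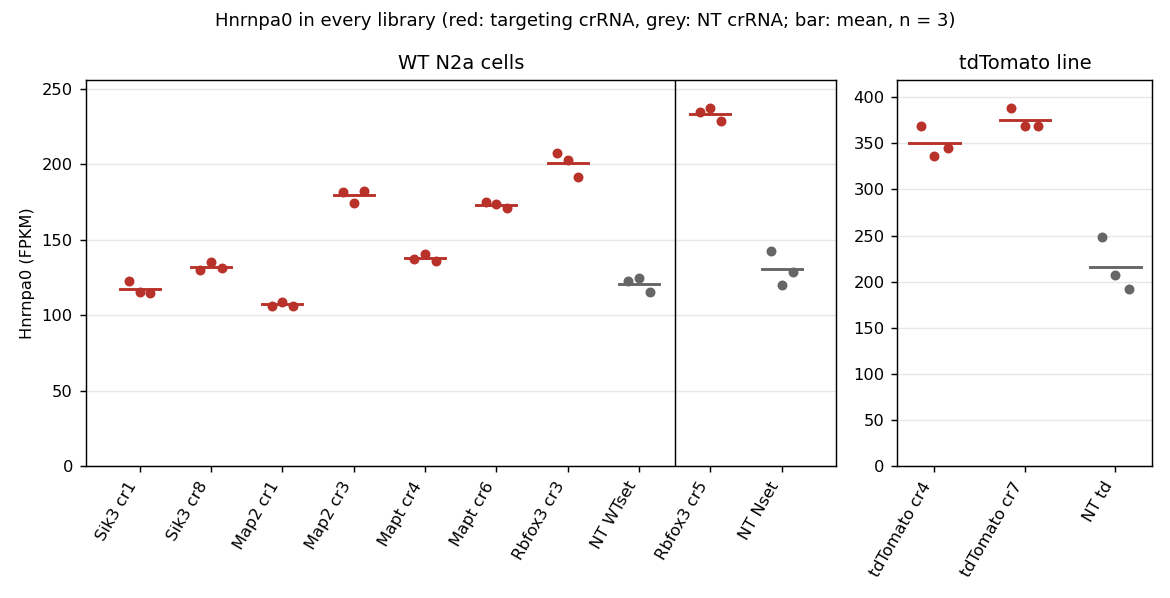
Hnrnpa0 in FPKM in every library of WT N2a cells (left; the vertical line separates the WT set from the N set) and of the tdTomato line (right, its own axis), with targeting crRNAs in red, NT crRNA in grey and means of 3 libraries as bars. Libraries with Rbfox3 cr5 stand at 229 to 237 FPKM, against 120.4 to 143 FPKM for their NT libraries, and those with Map2 cr1 at 106 to 109 FPKM lie under NT.

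Hnrnpa0 also separated crRNAs to the same target. It was higher with Map2 cr3 than with Map2 cr1 by 0.74 on the log2 scale (limma adjusted p = 5.61e-12), and higher with Mapt cr6 than with Mapt cr4 by 0.33 (limma adjusted p = 4.85e-05), with spacers that share 17 bases. Sik3 cr8 exceeded Sik3 cr1 by 0.17 (limma adjusted p = 0.0347), a call made in 6 of 17 alternative settings and lost without Sik3 cr1 replicate 2 or 3 or without any 1 library of Sik3 cr8. tdTomato cr7 and cr4 differed by 0.10 (SE 0.07), which did not pass the test (limma adjusted p = 0.558). In the Map2, Mapt and Sik3 pairs the crRNA with the higher Hnrnpa0 level also had the lower level of its target, for example 11.9% of NT with Map2 cr3 and 25.4% with Map2 cr1. The tdTomato pair had the same order, but its target overlapped, at 140 to 163 FPKM with cr4 and 120 to 148 FPKM with cr7. Between some crRNAs of different targets the order was not kept. Sik3 cr8 left 15.5% of its target with Hnrnpa0 at 109% of NT, and Mapt cr6 left 23.5% with Hnrnpa0 at 143%. Whether the levels of Hnrnpa0 and the target go together was not tested. The Rbfox3 crRNAs, with Hnrnpa0 higher by 0.73 (cr3) and 0.84 (cr5), form no such pair. Their NT libraries differ, and Rbfox3 was near 0 FPKM with or without them.

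Other hnRNPs moved less. Hnrnpu, the scaffold protein also called SAF-A, was lower with all 7 crRNAs, at 143 ± 6.80 FPKM over the 21 targeting libraries of the WT set against 168 ± 0.68 FPKM in NT cells (log2 fold change -0.23, SE 0.02, limma adjusted p = 3.72e-10). Hnrnpm, a regulator of exon skipping, was lower with 6 and Hnrnpk, a poly(C)-binding protein, with 5, with log2 fold changes down to -0.24 and -0.19. Their exons overlap those of Cox20 (Hnrnpu), March2 (Hnrnpm) and Rmi1 (Hnrnpk), and whether the counting used strand is not stated. Further members have exon overlaps too, among them Hnrnpab (with Phykpl), Hnrnph3 (Rufy2), Hnrnpl (Gm44702) and Srsf1 (Gm11508). Hnrnpl, which binds CA-rich introns and exons, was higher with 5 crRNAs. Hnrnpl reached 222, 218 and 224 FPKM with Rbfox3 cr3 against 181, 182 and 179 FPKM in NT cells of the WT set (log2 fold change 0.29, SE 0.03, limma adjusted p = 3.1e-07).

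Hnrnph2, an X-linked gene whose protein binds G-rich runs, was higher with 4 crRNAs of the WT set. It had 43.6, 42.8 and 42.7 FPKM with Map2 cr3 and 42.3, 42.1 and 44.4 with Rbfox3 cr3, against 35.3, 38.1 and 37.1 FPKM in NT cells, with no overlap (log2 fold changes 0.22 and 0.22, limma adjusted p = 0.0025 and 0.00299). It had 38.9, 45.5 and 41.1 FPKM with Sik3 cr8 (0.18, limma adjusted p = 0.00915) and 40.4, 41.9 and 40.0 with Mapt cr6 (0.14, limma adjusted p = 0.037). The Hnrnph2 call for Mapt cr6 was made in 9 of 18 alternative settings. The one for Sik3 cr8 was made in 14 of 18 and lost without NT replicate 1 or Sik3 cr8 replicate 2. With Sik3 cr1 (42.7, 41.8 and 36.2 FPKM), Map2 cr1 (36.4, 37.6 and 38.8 FPKM) and Mapt cr4 (41.1, 39.7 and 40.0 FPKM) no call was made.

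Hnrnpul1, a relative of SAF-A, and Hnrnpa1, the founding A/B hnRNP, were higher in another set of groups. Hnrnpul1 had 55.1, 56.4 and 51.7 FPKM with Map2 cr1, 51.1, 53.0 and 55.6 with Sik3 cr1, 51.3, 52.9 and 49.3 with Sik3 cr8 and 52.0, 52.6 and 48.3 with Mapt cr4, against 44.7, 45.8 and 45.4 FPKM in NT cells of the WT set. All 12 libraries were above NT, by log2 fold changes of 0.26, 0.23, 0.17 and 0.17 (limma adjusted p = 0.00102, 0.00374, 0.0248 and 0.0337). The Hnrnpul1 call for Sik3 cr8 was made in 14 of 18 alternative settings and lost without NT replicate 1 or 2 or Sik3 cr8 replicate 2. The one for Mapt cr4 was made in 11 of 18 and lost without NT replicate 1 or 2 or Mapt cr4 replicate 1 or 2. Hnrnpa1 had 39.1, 42.5 and 34.0 FPKM with Sik3 cr8, 37.0, 37.4 and 38.6 with Mapt cr4 and 36.0, 37.1 and 34.0 with Map2 cr1, against 29.2, 31.7 and 29.8 FPKM in NT cells of the WT set. These were log2 fold changes of 0.34, 0.31 and 0.24 (SE 0.08, limma adjusted p = 0.00111, 0.00267 and 0.0146). The Hnrnpa1 call for Map2 cr1 was made in 15 of 18 alternative settings and lost without NT replicate 1 or Map2 cr1 replicate 2. With Mapt cr6 (31.2, 28.3 and 31.9 FPKM), Rbfox3 cr3 (30.5, 28.9 and 27.1 FPKM), Map2 cr3 (29.0 ± 3.08 FPKM) and Sik3 cr1 (32.6, 33.7 and 29.8 FPKM), Hnrnpa1 overlapped NT. Hnrnpa1 has processed pseudogenes, and how reads that fit several places were counted is not stated.

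Hnrnpdl, a relative of Hnrnpd, was lower with Mapt cr6 (log2 fold change -0.24, limma adjusted p = 0.000106) and Map2 cr3 (-0.22, limma adjusted p = 0.00025), and Hnrnpul2 was lower with Rbfox3 cr3 (-0.21, limma adjusted p = 0.000725). Hnrnph3 was higher with Map2 cr1 (0.22, limma adjusted p = 0.00432). Hnrnpab, which binds AU-rich RNA, was called lower with 4 crRNAs and higher with 1, Map2 cr3. Hnrnpd, Hnrnpf and Hnrnph1 were called with 0 of the 7 crRNAs, with log2 fold changes between -0.05 and 0.12 over the 3 genes.

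The crRNAs to one target differed in how many members they separated. Between Map2 cr3 and Map2 cr1, 13 members were higher with cr3 and 5 lower, beside 21.3% and 14.5% of all genes. Rescaled, these were 12 and 7 members, beside 17.5% and 19.6% of all genes. Srsf2 was higher with Map2 cr3 by 0.52 and Srsf3 by 0.43 on the log2 scale (limma adjusted p = 5.14e-08 and 5.3e-06), while Hnrnpdl (-0.30), Hnrnpa1 (-0.30) and Hnrnpul1 (-0.26) were lower (limma adjusted p = 6.54e-06, 0.00425 and 0.00197). Between Mapt cr6 and Mapt cr4, 3 members were higher and 3 lower, beside 4.48% and 2.98% of all genes. Rescaled, they were 1 and 3, beside 3.49% and 4.45%. Beyond Hnrnpa0 these were Srsf2 (0.17) and Srsf1 (0.13), higher with Mapt cr6, and Hnrnpa1 (-0.30), Hnrnpdl (-0.15) and Srsf11 (-0.14), lower with it. The Srsf2 call was made in 4 of 17 alternative settings, that of Srsf1 in 9 and that of Hnrnpdl in 10. The Srsf1 call was lost without any 1 library of Mapt cr6 or without Mapt cr4 replicate 2 or 3, and the Hnrnpdl call without any 1 library of Mapt cr6 or without Mapt cr4 replicate 1 or 3. The count fell to 2 without Mapt cr4 replicate 3 or Mapt cr6 replicate 2, and to 3 without Mapt cr6 replicate 1 or 3, and the shares of all genes there were not computed. Between Sik3 cr8 and Sik3 cr1, 1 member was higher and 0 lower, beside 1.52% and 1.09% of all genes. Between tdTomato cr7 and tdTomato cr4, 0 members were called either way by limma, beside 0.00844% of all genes higher and 0.0422% lower. At an unadjusted limma p under 0.05, 13 members were higher and 0 lower. The share of all genes at that threshold was not computed, so this count has no background beside it.

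With Rbfox3 cr5 the SR proteins had no common direction. Srsf2 was higher, with 292, 297 and 282 FPKM against 258, 227 and 234 FPKM in NT cells of the N set (log2 fold change 0.28, limma adjusted p = 0.000302), the opposite sign to its calls in the WT set. Srsf3 was lower, with 73.1, 70.4 and 70.4 FPKM against 88.7, 75.3 and 78.0 FPKM (-0.17, limma adjusted p = 0.0342), and this call, made in 9 of 16 alternative settings, was lost without NT replicate 3 of the N set, where the log2 fold change of Srsf3 was -0.10. Hnrnph3 (0.19, limma adjusted p = 0.026) was higher and Hnrnpm (-0.14, limma adjusted p = 0.00417) lower. The Hnrnph3 call was made in 11 of 16 alternative settings and lost without the series term, without NT replicate 3 or 5 of the N set and without Rbfox3 cr5 replicate 2 or 3. Of the 13 members called, 8 were left without NT replicate 3, 7 without Rbfox3 cr5 replicate 2 and 8 without Rbfox3 cr5 replicate 3. The shares of all genes called without these libraries were not computed.

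In the tdTomato line the calls beyond Hnrnpa0 were few. Replicate 1 of each group belongs to another library series than the other replicates, and a microRNA gene, Mir6236, led its expression values, at 19064 FPKM with tdTomato cr4, 27745 with tdTomato cr7 and 11079 in NT cells. In the other 6 libraries it was at 9016 and 9584 FPKM with tdTomato cr4, 7679 and 7986 with tdTomato cr7, and 3708 and 3706 in NT cells. The 10 most abundant genes held 13.4%, 16.9% and 10.02% of the summed FPKM of replicate 1 with tdTomato cr4, tdTomato cr7 and NT, and 7.34% to 9.96% in the other libraries. Its part in the results was not tested. Without replicate 1 of each group, 4 members were higher and 4 lower with tdTomato cr4, beside 4.12% and 1.48% of all genes, and 7 were higher and 0 lower with tdTomato cr7, beside 5.24% and 3.61%. Hnrnpm had 289.6, 286 and 276 FPKM with tdTomato cr4 against 441, 359.8 and 375 FPKM in NT cells (log2 fold change -0.46, limma adjusted p = 0.00241). Srsf9 (-0.41, limma adjusted p = 0.00734) and Hnrnpd (-0.40, limma adjusted p = 0.0129) were lower as well. Hnrnpm did not overlap NT, while Srsf9 did. These 3 calls were lost without the term for library series, where limma called 1 member, beside 1.85% of all genes higher and 0.312% lower. The count was 4 without tdTomato cr4 replicate 3, against 7 with all libraries, and the share of all genes there was not computed. With tdTomato cr7, Hnrnpa1 had 51.9, 56.5 and 62.7 FPKM against 43.9, 35.4 and 34.4 FPKM in NT cells (log2 fold change 0.59, SE 0.15, limma adjusted p = 0.0274), while with tdTomato cr4 it had 31.9, 48.4 and 44.8 FPKM and overlapped NT. Hnrnph2 had 91.1, 64.7 and 71.9 FPKM with tdTomato cr7 against 69.5, 57.4 and 51.9 FPKM (0.34, limma adjusted p = 0.0292), and replicate 1 was the highest in both groups. The calls of Hnrnpa1 and Hnrnph2 were each made in 8 of 16 alternative settings. Of the 3 members called, 1 was left without tdTomato cr7 replicate 1 or 3 or NT replicate 2 or 3, and 5 were called without NT replicate 1. The shares of all genes called without these libraries were not computed.

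The median log2 fold change over all genes was -0.13 with tdTomato cr7 (-0.08 without replicate 1 of each group), and rescaling by the median ratio moved it by 0.12. On that scale 9 members were called higher and 0 lower, beside 10.5% of all genes higher and 4.67% lower. Srsf3 in this line was at 89.0, 95.6 and 99.5 FPKM with tdTomato cr4 and 86.1, 84.5 and 89.9 with tdTomato cr7, against 89.8, 88.7 and 88.8 FPKM in NT cells, and neither comparison passed the test. Srsf2 (535, 453 and 494 FPKM with tdTomato cr4, 589, 480.5 and 469 with tdTomato cr7, 533, 414 and 422 in NT cells) likewise overlapped.

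The NT libraries of the N set and of the WT set, which differ in neither line nor crRNA by their labels, differed too. In the N set 15 members were higher, beside 26.5% of all genes, and 4 were lower, beside 19.9%. Rescaled, 10 were higher and 8 lower, beside 21.4% and 25%. Srsf3 had 88.7, 75.3 and 78.0 FPKM in NT cells of the N set against 54.3, 49.3 and 61.0 FPKM in NT cells of the WT set (log2 fold change 0.49 after the series term, SE 0.06, limma adjusted p = 1.06e-06), and Srsf2 differed by 0.42 and Srsf6 by 0.41 (limma adjusted p = 1.36e-06 and 2.42e-08). Of the 10 SR proteins, 7 were higher in the N set and 0 lower. Hnrnph3 (-0.39), Hnrnph2 (-0.24) and Hnrnpdl (-0.20) were lower (limma adjusted p = 3.25e-05, 0.00155 and 0.000718). Hnrnpa0 was higher by 0.13 (limma adjusted p = 0.021), with overlapping groups. Fitted on these 6 libraries alone, 5 members were called, 4 higher and 1 lower, beside 9.8% and 6.38% of all genes. What set the 2 sets apart is not given by the labels, and its part in the SR protein results was not tested. Against all 6 NT libraries of WT cells, the mean of the 7 crRNAs called 16 members lower and 9 higher, beside 29.9% and 33.4% of all genes.

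The mRNAs of proteins that act on or with the members moved in both directions too, but more were called lower than higher in each list over the mean of the 7 crRNAs. The median log2 fold changes of the lists ran from -0.09 to -0.02, against 0.03 over all genes. The shares of all genes, 21.7% lower and 28.2% higher, stand beside every list. In each list the 2 called genes with the largest change each way were named. Of 11 measured kinases, phosphatase and importin genes that act on SR proteins, 5 were lower and 2 higher over the mean of the 7 crRNAs, beside 21.7% of all genes lower and 28.2% higher. Ppp1ca, a phosphatase subunit, fell by 0.30 and its nuclear regulator Ppp1r8 fell by 0.25 on the log2 scale, while the kinases Srpk2 and Clk3 were higher by 0.14 and 0.13 (limma adjusted p between 4.65e-09 and 0.00486). Of 22 SR-related factors, 11 were lower and 6 higher, led by Thrap3 (-0.56) and Scaf4 (-0.39) on one side and Rsrc1 (0.32) and Scaf11 (0.26) on the other. Of 20 hnRNP-like genes under other symbols, 9 were lower and 4 higher. Rbmx (-0.41) and Ewsr1 (-0.25) were lower, and Pcbp1 (0.16) and Syncrip (0.13) were higher. Of 20 U1, U2 and U2AF genes, 9 were lower and 3 higher, with Sf3a3 (-0.37) and Sf3b4 (-0.33) lower and Sf3b5 (0.34) and Sf3a1 (0.12) higher. Of 15 nonsense-mediated decay genes, 6 were lower and 2 higher, with Smg6 (-0.52) and Smg5 (-0.45) lower and Smg8 (0.23) and Casc3 (0.10) higher.

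With Rbfox3 cr5 some of the same genes were called. Smg6, the endonuclease of nonsense-mediated decay, was at 10.1 ± 0.54 FPKM against 15.9 ± 0.81 FPKM in NT cells of the N set (log2 fold change -0.62, limma adjusted p = 1.3e-09), and Smg9 was lower by -0.41 on the log2 scale. Pcbp1, a poly(C)-binding hnRNP without introns, was at 358 ± 6.99 FPKM against 238 ± 10.6 FPKM (SD, n = 3, log2 fold change 0.59, limma adjusted p = 3.85e-11), and Cirbp was higher by 0.37. Thrap3 (-0.39), Tra2b (-0.38), Clk1 (-0.28) and U2af2 (-0.20) were lower, and Sf3b5 (0.48), Prpf4b (0.38), Tnpo1 (0.33) and Smg8 (0.29) were higher. By list, 2 of 11 were higher and 3 lower among kinases, phosphatase and importins, 5 and 6 of 22 among SR-related factors, 4 and 5 of 20 among hnRNP-like genes, 3 and 7 of 20 among U1, U2 and U2AF genes, and 3 and 5 of 15 among decay genes, beside 12.6% of all genes higher and 13.1% lower.

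Over the 30 libraries of WT cells, after the mean of each library series was taken off, the genes whose levels followed the average SR protein most closely were Bmi1, Tmx2 and Tfrc, each with a Pearson correlation of 0.97 on log2(FPKM + 0.5). The points share libraries, depth and the difference between the N set and the WT set, so the correlation is given as a description.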

How the data were processed

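An mRNA-seq kit was used on total RNA of N2a cells. Per the study's methods and the labels, the authors aligned reads to mm10 with Subread, counted them per gene with featureCounts and normalized the counts to FPKM; adapter trimming used Trim Galore. How reads that fit several places, or both strands, were counted is not given in the sources used here. The deposited FPKM, 1 table for WT cells and 1 for the tdTomato line, were not rescaled. Depth was estimated from the FPKM worth of 1 read: 95.0% to 98.6% (WT) and 94.6% to 97.4% (tdTomato line) of low values in short genes came out within 0.02 of a whole read. No column of per-sample values was left unused.

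log2(FPKM + 0.5) was fitted per table by limma 3.58.1 with a variance trend (R 4.3.3), over genes with a mean of at least 1 FPKM plus the targeted genes (11554 in WT cells, 11853 in the tdTomato line), with terms for group and library series (the letters of the library names), two-sided, with Benjamini-Hochberg adjustment. The fit was tested on simulated data. DESeq2, which the authors used, needs counts and was not run. Per comparison, the 3 members with the largest called change each way were named, and the 4 SR proteins and 4 hnRNPs named most often were given per library; values of Hnrnpu, Hnrnpl, Hnrnpm, and of unnamed changes, were added after their values were seen. Members and lists were chosen with earlier results of these data known. Spacers were read from the study's oligonucleotide list and matched to GENCODE vM21 transcripts. Alternatives were other pseudocounts, filters, scaling, terms, sets of libraries and NT groups. Protein sequences were not used here.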

Additional observations from a re-analysis of the deposited data

Results flagged for a closer look

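Hnrnpa0 went opposite ways with the 2 crRNAs to Map2: its log2 fold change against the shared NT libraries was 0.57 with Map2 cr3 and -0.17 with Map2 cr1, and the direct comparison of Map2 cr3 with Map2 cr1 gave 0.74 (limma adjusted p = 5.61e-12), with 3 of 3 libraries of Map2 cr3 above all of Map2 cr1. Hnrnpab, whose exons overlap those of Phykpl, did the same at a smaller size. Its log2 fold changes were 0.11 for Map2 cr3 and -0.16 for Map2 cr1 against NT, and 0.27 between them (limma adjusted p = 7.24e-07). Hnrnpa0 and Hnrnpab were both called higher with the first crRNA, lower with the second, and different between the 2. No other member met these conditions in the 4 pairs of crRNAs to 1 target.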

How the results depend on the processing

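Each named change was recomputed under each other setting, which gave 879 recomputations. Of these, 799 kept direction and side of the threshold, 80 lost significance and 0 reversed. With 1 library left out, 518 of 576 recomputations kept both, 58 lost significance and 0 reversed. With no filter or no variance trend the log2 fold change stays the same, so a reversal could not occur there. Except between the 2 NT sets, it also stays the same with no series term, with a replicate block and with the compared groups only. For Rbfox3 cr5 the same holds in LDL libraries only. A reversal could not occur in those recomputations either. Among calls not named in the text, Hnrnpa3 turned sign for Map2 cr3 and Mapt cr6 against all 6 NT libraries, at -0.03 and -0.04, and Hnrnpul2 for Sik3 cr1 in LDL libraries only, at 0.01 (limma adjusted p between 0.732 and 0.968). The number of members called moved by over 1.5 times in 31 of 178 cases under other settings and in 19 of 114 with a library left out. In the LDL library series alone, each WT-set group is 1 library, whose spread is assumed to be that of the N-set groups. There, fewer members and also fewer of all genes were called for each WT-set crRNA, so those counts are not listed. For Rbfox3 cr5, with 3 libraries per group in that series, the number of members called was 6, beside 8.08% of all genes higher and 7.23% lower. In LDK libraries only, the number of members called was 2 for the Mapt pair, beside 2.09% of all genes higher and 1.67% lower. For tdTomato cr7 it was 7, beside 5.24% higher and 3.61% lower. With the compared groups only it was 8 for Sik3 cr1, beside 18.2% of all genes higher and 16.9% lower. It was 6 for Rbfox3 cr5 (8.15% and 7.42% of all genes), 5 for the NT sets (9.8% and 6.38%), 0 for the Sik3 pair (0.381% and 0.0779%) and 8 for tdTomato cr7 (5.92% and 7.91%). Against all 6 NT libraries it was 19 for Map2 cr3, beside 22.3% of all genes higher and 17.8% lower. With no series term it was 8 for Rbfox3 cr5 (11.6% of all genes higher and 11.8% lower), 0 for the Sik3 pair (0.926% and 0.701%), 1 for tdTomato cr4 (1.85% and 0.312%) and 1 for tdTomato cr7 (1.62% and 0.92%). With no variance trend it was 0 for the Sik3 pair (0.9% and 0.857%), 2 for tdTomato cr4 (2.78% and 1.33%) and 1 for tdTomato cr7 (3.93% and 7.65%). With no filter it was 0 for the Sik3 pair (0.478% and 0.492%). For tdTomato cr7 it was 5 at a mean of at least 5 FPKM (9.96% and 17.1%) and 9 rescaled by median ratios (10.5% and 4.67%). The cause was not tested. With each library left out in turn the counts ran from 8 to 14 for Mapt cr6, 7 to 11 for Rbfox3 cr5, 13 to 23 for the mean of 7, 0 to 1 for the Sik3 pair, 2 to 4 for the Mapt pair, 4 to 7 for tdTomato cr4 and 1 to 5 for tdTomato cr7. No share of all genes was computed for these fits. The numbers were not taken as pairs. Residuals of samples of 1 number, after the group and series terms, had correlations of -0.22 to 0.11 in WT cells and -0.51 to -0.07 in the tdTomato line. Where a series held 1 library per group, the series term itself pushes these correlations under 0, so a shared deviation could not show there. This holds for LDL libraries of the WT set and for replicate 1 of the tdTomato line, which gave the lowest values. The correlations therefore do not decide whether the numbers are pairs. With a replicate block in place of the series term, 15 members were called for Sik3 cr1, beside 23.5% of all genes higher and 21.1% lower. There were 19 for the mean of 7 (28.4% and 21.6% of all genes) and 12 for Rbfox3 cr5 (12.8% and 12.9%). With the block 1 named call was lost, Srsf2 in Mapt cr6 against Mapt cr4 (limma adjusted p = 0.0518). The 2 NT sets could not be fitted with the block.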
